A study of Mus musculus with 16 samples.

Results

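The genes described here are the Toll-like receptors Tlr1 to Tlr8, the co-receptor gene Cd14 and the adaptor gene Myd88, as measured in the mouse uterus. They were chosen by name: a probe counted for a gene where its RefSeq accession maps to that gene's symbol or an alias. The rule names 10 genes, and 9 of them had a matched probe and passed the filter on dim probes, out of 24652 genes and unnamed targets tested, 16529 of them with a symbol. No probe was matched to Tlr5, the flagellin receptor, which is not analysed here.

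Whole uterus RNA was hybridised to 16 one-colour arrays, 4 in each of 4 groups. Pups were given genistein, an isoflavone of soy with estrogenic activity, at 50 mg/kg in corn oil, or 20 µl of corn oil alone, on postnatal days 1 to 5. The sample labels name the neonatal control saline, while the series design names corn oil, and it is called the control here. Every animal then lost its adrenals and ovaries at 6 weeks of age, so all groups lacked the main sources of corticosterone and ovarian steroids. At 8 weeks, 100 µl of saline vehicle or 1 mg/kg of the synthetic glucocorticoid dexamethasone was injected into the peritoneum, and the uterus was taken 4 h later. By neonatal and then adult treatment the groups are control vehicle (SalV), control dexamethasone (SalD), genistein vehicle (GenV) and, for both agents, genistein dexamethasone (GenD). The series asks, by its title, whether genistein early in life changes how the adult uterus signals through glucocorticoids. The labels give neither strain nor animal for an array, so p-values measure the spread between arrays, which may be technical.

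Toll-like receptors recognise molecules of microbes and of damaged cells. At the cell surface Tlr2 pairs with Tlr1 or Tlr6 to bind bacterial lipopeptides, and Tlr4 binds lipopolysaccharide that Cd14 hands on, while Tlr3, Tlr7 and Tlr8 sense RNA inside endosomes. All of these receptors except Tlr3 signal through Myd88 to kinases that release the transcription factor NF-κB, and glucocorticoids are known for dampening the output of this route. In the uterus epithelium, stroma and resident leukocytes carry these receptors.

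Promoters are shown for Tlr2 and Tlr1, because both genes had lower signals after dexamethasone in the results that follow. Promoters of 7 of the 10 genes were taken from the RefSeq promoter table of build GRCm38.p6. None was taken for Tlr4, Tlr7 and Cd14. Not every chromosome was read for these genes, which does not account for every gene without a promoter. Each line gives the 250 bases before a start site, 5′ to 3′ on the gene's strand, which is the minus strand for each. Capitals mark a match to the NF-κB consensus in Tlr2 and the PU.1-type letters GAGGAAG in Tlr1 (start 2).
Tlr2, chr3:83841609-83841858: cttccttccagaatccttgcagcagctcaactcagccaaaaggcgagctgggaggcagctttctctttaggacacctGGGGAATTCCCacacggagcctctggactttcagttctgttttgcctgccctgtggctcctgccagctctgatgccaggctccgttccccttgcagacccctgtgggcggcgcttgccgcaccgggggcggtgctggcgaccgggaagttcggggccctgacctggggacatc
Tlr1 (start 1), chr5:64932700-64932949: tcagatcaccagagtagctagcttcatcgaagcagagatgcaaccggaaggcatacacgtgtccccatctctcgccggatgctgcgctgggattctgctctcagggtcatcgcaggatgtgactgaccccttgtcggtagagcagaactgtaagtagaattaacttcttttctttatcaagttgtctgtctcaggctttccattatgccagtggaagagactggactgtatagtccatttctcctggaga
Tlr1 (start 2), chr5:64933559-64933808: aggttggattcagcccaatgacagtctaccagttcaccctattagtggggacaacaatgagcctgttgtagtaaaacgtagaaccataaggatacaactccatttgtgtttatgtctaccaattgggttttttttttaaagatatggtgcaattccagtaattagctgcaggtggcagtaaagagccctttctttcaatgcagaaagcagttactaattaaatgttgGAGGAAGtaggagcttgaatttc
The capitals of Tlr2 are overlapping matches that begin 173 and 172 bases before its start site. An NF-κB consensus match was found in 3.9% of the 32851 promoters of this length in the table. The capitals of Tlr1 begin 23 bases before its second listed start, and GAGGAAG occurred in 10.6% of promoters on either strand. Among the other genes, Tlr3 held an NF-κB match, and Tlr6 (start 1) and Myd88 held the interferon-response letters GAAANNGAAA, which 2.98% of promoters contain. None of the 9 promoters of these genes held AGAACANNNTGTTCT, the full glucocorticoid response element (0.00913% of promoters), its shorter core AGAACA (16.1%) or the AP-1 letters TGANTCA (6.75%). The looser C/EBP-type letters TTNNGNAA matched in 36.8% of all promoters, and in those of Tlr2, Tlr3, Tlr6 (start 1) and Tlr8. Both strands were searched, and a match describes letters only.

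The 75th percentile of spot signal ran from 948 to 2719 across arrays, with the control dexamethasone arrays at 1987 to 2719 and the others at 948 to 2029. Between 68.9 and 81.3% of spots stood well above their background. Those 4 arrays also stood apart on the first principal component (65.0 to 102, where control vehicle array 1 lay at -68.3), and genistein vehicle arrays 3 and 4 stood apart from the rest of their group on the second (73.1 and 49.7 against -42.5 and -52.2). Glucocorticoid targets checked the adult treatment: the cochaperone gene Fkbp5 was 4.44 higher on the log2 scale with dexamethasone in controls and 4.56 higher after genistein, adjusted p = 1.58e-05 and 1.64e-05 by limma. Markers of the labelled tissue were present, with all 7 epithelial, 7 of 8 stromal and 5 of 6 smooth muscle markers measured. Values below are log2 signals minus the array's own 75th percentile, changes are on the same scale with their standard error (SE), and adjusted p-values are limma's with Benjamini-Hochberg adjustment over all 24652 targets, called below 0.05. The median change over all targets was -0.16 for dexamethasone in controls, -0.015 for dexamethasone after genistein, 0.051 for genistein under vehicle and 0.12 for genistein under dexamethasone.

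Among the 9 measured genes, dexamethasone in controls raised Tlr7 and lowered Tlr2 and Tlr1, so 3 were called, against 23.0% of all targets. Called rises made up 8.45% of targets and called falls 14.6%. In mice given genistein as neonates dexamethasone raised Tlr7 and lowered Tlr1, so 2 of 9 were called, against 5.29% of all targets, with 2.49% rises and 2.79% falls. The median change of the 9 genes was -0.10 in controls and -0.35 after genistein.

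**Figure D1:**
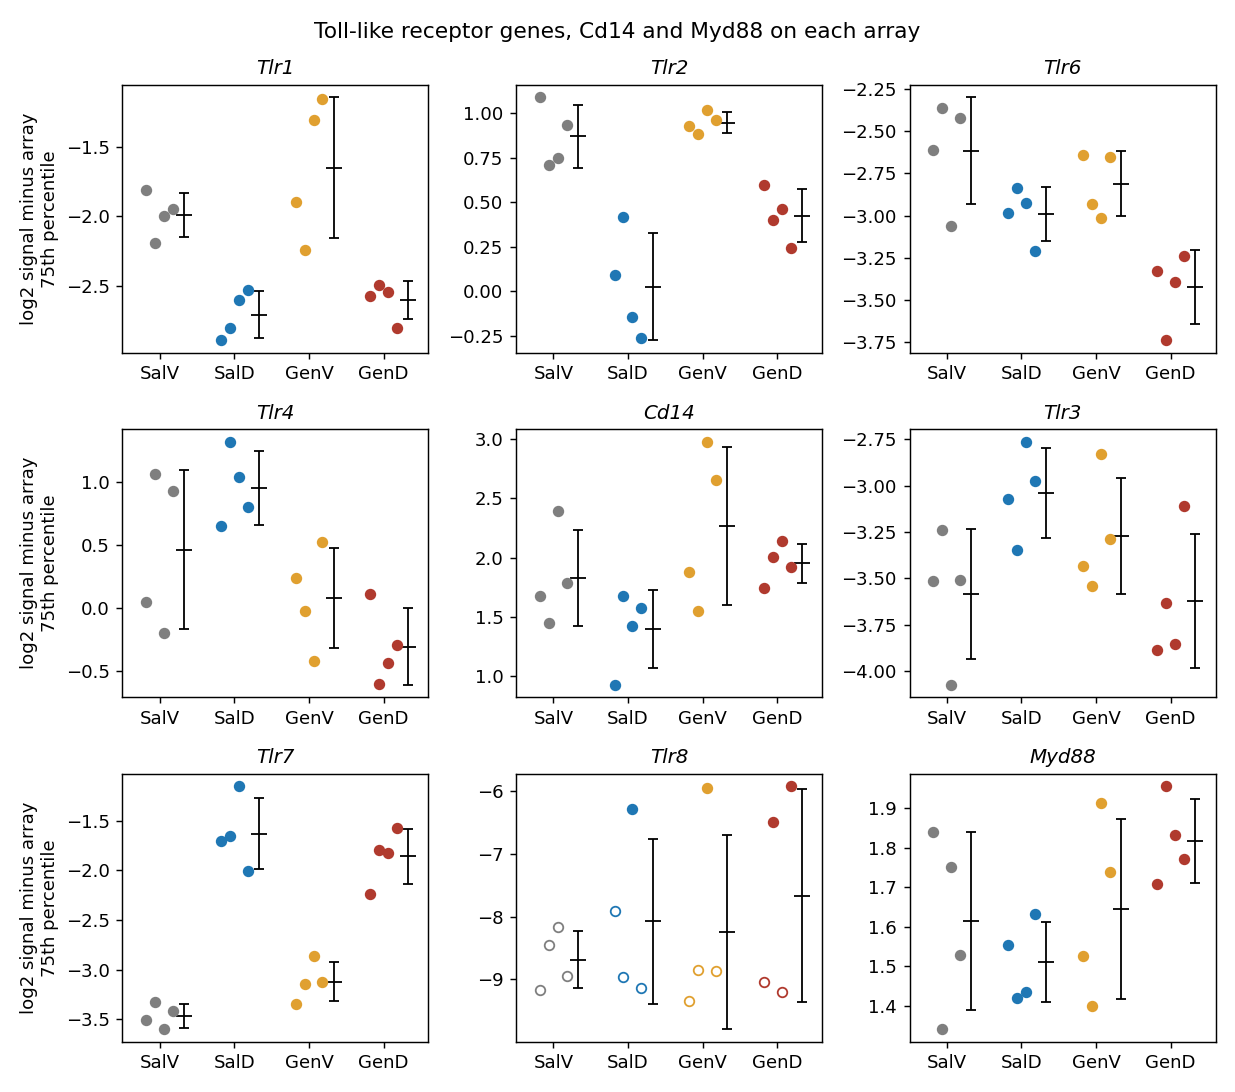
Scaled log2 signal (log2 signal minus the array's 75th percentile) of the 9 measured genes on each of the 16 arrays, by group, with a separate axis for each gene; points are arrays, open where the probe was not well above background, and the bars give the group mean ± SD (n = 4). Tlr7 is higher on all dexamethasone arrays (-2.23 to -1.15) than on all vehicle arrays (-3.60 to -2.86), and Tlr1 and Tlr2 are lower on all dexamethasone arrays than on all vehicle arrays.

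Tlr7, the endosomal receptor for single-stranded RNA, had the clearest change of the set. On the control vehicle arrays its signals were -3.51, -3.33, -3.60 and -3.42, and on the control dexamethasone arrays -1.70, -1.66, -1.15 and -2.00. The genistein vehicle arrays read -3.35, -3.15, -2.86 and -3.12, and the genistein dexamethasone arrays -2.23, -1.79, -1.82 and -1.57. Every dexamethasone array was above every vehicle array, while the control and genistein arrays overlapped under either adult treatment. Dexamethasone raised Tlr7 by 1.83 in controls (SE 0.19, 95% interval 1.44 to 2.23, 3.57-fold, adjusted p = 5.02e-05). After genistein it rose by 1.26 (SE 0.19, 2.40-fold, adjusted p = 0.00116). By p-value Tlr7 ranked 45 of 24652 in controls and 163 of 24652 after genistein. The rise was seen on each slide that held both groups, at 1.68, 1.62 and 2.27 in controls and 1.32, 1.33 and 1.57 after genistein. It was no longer called after genistein under normexp background correction (1.20, adjusted p = 0.0607). The smaller rise after genistein, an interaction of -0.57 (95% interval -1.13 to -0.01), was not called (adjusted p = 0.316) and was 0.08 with normexp correction.

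Tlr2, the shared partner of the lipopeptide receptors, fell with dexamethasone in controls. Its signals were 1.09, 0.71, 0.75 and 0.93 on the control vehicle arrays and 0.09, 0.42, -0.15 and -0.26 on the control dexamethasone arrays, with no overlap. After genistein they were 0.93, 0.88, 1.02 and 0.96 under vehicle and 0.60, 0.40, 0.46 and 0.24 under dexamethasone, again with no overlap. The change in controls was -0.85 (SE 0.15, 1.80-fold, adjusted p = 0.00221) and was called under each of 33 alternative settings, at -0.98 to -0.62. After genistein the change was -0.52 (SE 0.15, adjusted p = 0.0618), which did not pass, although 6 alternative settings called it. Among those were the threshold of 0.1 on the same fit and fits without SalD arrays, which are not in this comparison. Within slides the differences were -1.01, -0.62 and -1.08 in controls and -0.40, -0.56 and -0.64 after genistein. The difference between both effects was 0.32 (SE 0.21, adjusted p = 0.469). Under dexamethasone, the genistein arrays overlapped the control arrays at 0.40 higher (SE 0.15, adjusted p = 0.0677). The Tlr2 probe was printed on 10 spots, whose SD within an array had a median of 0.0547. That SD measures spots and not arrays, and the SD between the arrays of a group was 0.06 to 0.30.

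Tlr1, which joins Tlr2 in the receptor for triacylated lipopeptides, fell with dexamethasone in both settings. Control vehicle arrays gave -1.81, -2.19, -1.99 and -1.95, and control dexamethasone arrays -2.89, -2.80, -2.60 and -2.53. Genistein vehicle arrays gave -1.90, -2.24, -1.31 and -1.15, and genistein dexamethasone arrays -2.58, -2.49, -2.54 and -2.80. All dexamethasone arrays lay below all vehicle arrays, and genistein vehicle arrays 3 and 4, the pair apart on the second component, were the highest of the 16. The change was -0.72 in controls (SE 0.21, 1.65-fold, adjusted p = 0.0238) and -0.96 after genistein (SE 0.21, 1.94-fold, adjusted p = 0.0149). Within slides it was -0.85, -0.70 and -0.65 in controls and -0.66, -1.34 and -0.57 after genistein. Each call was lost under 5 alternatives. These were, in controls, quantile normalization, median scaling, and leaving out SalV array 1, SalD array 1 or SalD arrays 2 and 3 together (adjusted p from 0.0626 to 0.182). After genistein they were median scaling, normexp correction (-0.52), slide as a fixed block, fitting only the arrays compared, and leaving out GenV arrays 3 and 4 together (-0.54, adjusted p from 0.0594 to 0.347).

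Tlr6, the alternative partner of Tlr2 and a chromosomal neighbour of Tlr1, did not pass the test in any comparison. Control vehicle arrays gave -2.61, -2.37, -3.06 and -2.42 and control dexamethasone arrays -2.99, -2.84, -2.93 and -3.21. Genistein vehicle arrays gave -2.64, -2.93, -3.02 and -2.65, and genistein dexamethasone arrays -3.33, -3.74, -3.39 and -3.24. The genistein dexamethasone arrays were the lowest of all and overlapped no other group. The change with dexamethasone was -0.61 after genistein (SE 0.17, adjusted p = 0.0535), a value that 6 alternatives called, and -0.38 in controls (SE 0.17, adjusted p = 0.126). In controls 2 alternatives called it. They were array weights (-0.48, adjusted p = 0.0294) and leaving out SalV array 3 (-0.52, adjusted p = 0.0336). Genistein under dexamethasone gave -0.43 (SE 0.17, adjusted p = 0.0795), also called under 6 alternatives. Both sets of 6 alternatives include the threshold of 0.1 on the same fit. They also include a fit without a SalV array, which neither of those comparisons uses. With normexp correction both Tlr6 differences changed sign, to 0.02 for dexamethasone after genistein and 0.28 for genistein under dexamethasone, without a call. With dexamethasone in controls, 3 of the 9 genes had groups that did not overlap, against 28.3% of all targets, and after genistein 4 of 9, against 12.2%.

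**Figure D2:**
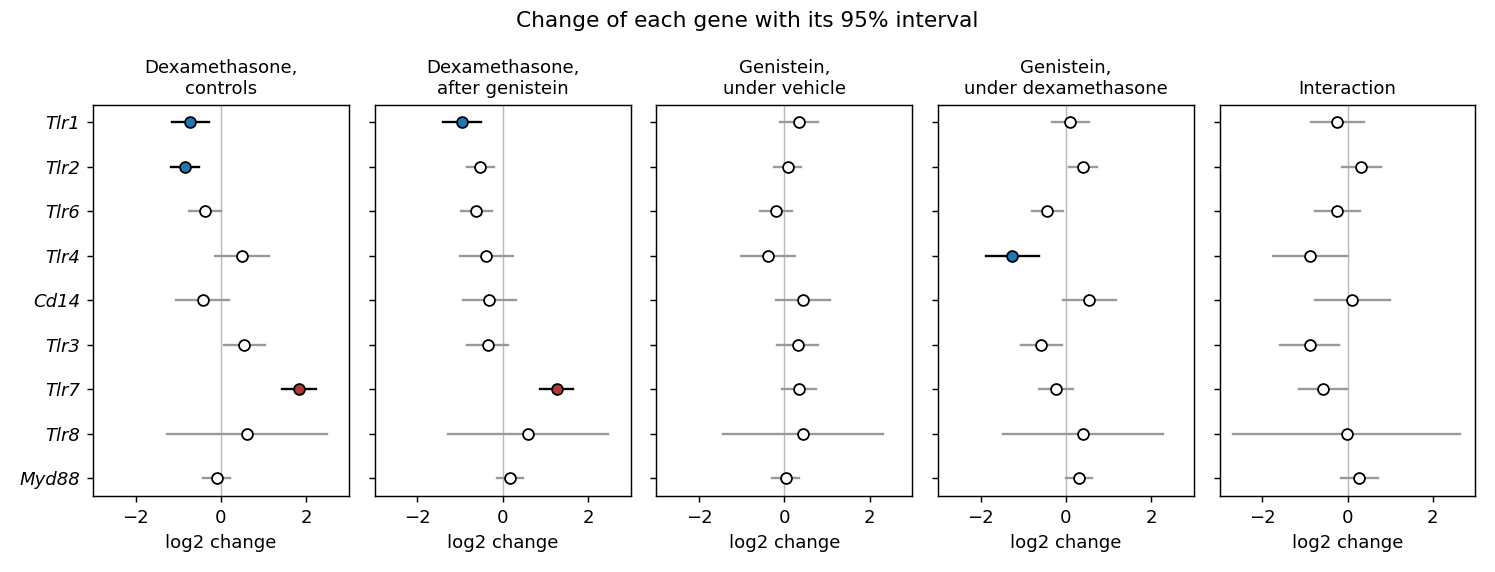
Log2 change of each measured gene in the 5 comparisons, with the 95% interval from limma; filled points passed the adjusted threshold (red higher, blue lower), open points did not. Tlr7 is to the right in both dexamethasone panels (1.83 and 1.26), Tlr1 and, in controls, Tlr2 are to the left, Tlr4 is the filled point for genistein under dexamethasone (-1.26), and the vehicle and interaction panels hold no filled point.

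With the probes used, Tlr4, the lipopolysaccharide receptor, was the only gene of the set called between genistein and control mice, and only under dexamethasone. Its signals were 0.65, 1.32, 1.04 and 0.80 on the control dexamethasone arrays and 0.11, -0.60, -0.44 and -0.29 on the genistein dexamethasone arrays. Those groups did not overlap, and the difference, genistein minus control, was -1.26 (SE 0.29, 95% interval -1.88 to -0.63, 2.39-fold, adjusted p = 0.0109). Without dexamethasone the signals were 0.05, 1.06, -0.20 and 0.93 in controls and 0.24, -0.02, -0.42 and 0.52 after genistein, overlapping each other and the dexamethasone arrays of the same neonatal treatment. The Tlr4 probe also had 10 spots, with a median SD of 0.0763 within an array, so the spread of control vehicle arrays was between arrays and not between spots. Dexamethasone changed Tlr4 by 0.49 in controls (SE 0.29, adjusted p = 0.236) and by -0.39 after genistein (SE 0.29, adjusted p = 0.558), and the difference of -0.88 between these was not called (SE 0.41, adjusted p = 0.324). On the slides that held both dexamethasone groups the Tlr4 difference was -1.25 and -1.33. Without SalD arrays 2 and 3 the difference was -1.03 and no longer called (adjusted p = 0.0900). Those 2 arrays had the highest mean log2 level of 8 adipocyte markers, 2.12 and 2.31, against -1.17 and 0.60 on the other control dexamethasone arrays and -1.84 to 0.94 on the genistein dexamethasone arrays. Across all arrays the Pearson correlation of Tlr4 with that level was -0.025, and -0.19 over deviations from group means. The part of fat tissue in the Tlr4 difference was not tested.

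The Tlr4 call was 1 of 9 for genistein under dexamethasone, against 22.9% of all targets, of which 16.5% were higher and 6.39% lower. Of the 9 genes, 4 had groups that did not overlap there (Tlr4, Tlr6, Cd14 and Myd88), against 28.6% of all targets. Under vehicle, genistein changed none of the 9 genes by limma at an adjusted p below 0.05, and 0 at an unadjusted p below 0.05, against 0.00406% and 13.9% of all targets. The changes there ran from -0.38 for Tlr4 to 0.44 for Cd14. For the interaction 0 of 9 were called against 0% of all targets, while 2 of 9, Tlr3 and Tlr7, had an unadjusted p below 0.05 against 15.5% of targets. Dexamethasone in controls and genistein under dexamethasone share the control dexamethasone arrays, so their results are not independent.

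Cd14, which passes lipopolysaccharide to Tlr4, was called in no comparison. Its signals were 1.68, 1.45, 2.40 and 1.78 on control vehicle arrays and 0.93, 1.67, 1.42 and 1.57 on control dexamethasone arrays. They were 1.88, 1.55, 2.98 and 2.65 on genistein vehicle arrays and 1.75, 2.00, 2.14 and 1.92 on genistein dexamethasone arrays. The highest readings were again those of genistein vehicle arrays 3 and 4. Dexamethasone gave -0.43 in controls (SE 0.29, adjusted p = 0.307) and -0.31 after genistein (SE 0.29, adjusted p = 0.661). Under dexamethasone the genistein arrays were all above the control arrays, at 0.55 (SE 0.29, adjusted p = 0.177).

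Tlr3, the endosomal receptor for double-stranded RNA, is the member that signals without Myd88. The probe measured on all arrays gave -3.51, -3.24, -4.07 and -3.51 in control vehicle and -3.07, -3.35, -2.76 and -2.98 in control dexamethasone. After genistein it gave -3.43, -3.54, -2.83 and -3.29 under vehicle and -3.89, -3.63, -3.85 and -3.11 under dexamethasone, so neighbouring groups overlapped throughout. Dexamethasone changed Tlr3 by 0.54 in controls (SE 0.22, adjusted p = 0.0939) and by -0.35 after genistein (SE 0.22, adjusted p = 0.477). The Tlr3 change in controls was called with quantile normalization (0.75, adjusted p = 0.0436) and median scaling (0.77, adjusted p = 0.0364), and was -0.06 with normexp correction. The difference between both changes, -0.89 (SE 0.32), had an adjusted p of 0.232. A brighter second probe, left out because its spot was an outlier on SalD array 1, gave -0.49 for dexamethasone after genistein and 0.90 in controls. On the remaining 15 arrays this brighter Tlr3 probe passed the test for genistein under dexamethasone, at -1.17 (adjusted p = 0.0315), where the probe used here gave -0.58 (adjusted p = 0.0743).

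Tlr8, the other endosomal RNA receptor, was near the limit of detection. Its probe was well above background on 4 of 16 arrays, with readings of -6.28 in control dexamethasone, -5.96 in genistein vehicle and both -6.50 and -5.92 in genistein dexamethasone. The other 12 arrays, including all 4 control vehicle arrays, lay between -9.34 and -7.92 and were not well above background. Its SE of 0.88 exceeded each of its changes, and no fold is given.

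Myd88, the adaptor these receptors share, was not called in the fit used. Control vehicle arrays gave 1.84, 1.34, 1.75 and 1.53 and control dexamethasone arrays 1.55, 1.42, 1.43 and 1.63. Genistein vehicle arrays gave 1.53, 1.40, 1.91 and 1.74, and genistein dexamethasone arrays 1.71, 1.96, 1.83 and 1.77. Dexamethasone changed Myd88 by -0.10 in controls (SE 0.14, 95% interval -0.41 to 0.20) and by 0.17 after genistein (SE 0.14, 95% interval -0.13 to 0.48). These intervals leave room for changes of up to 0.48 in size. Under dexamethasone the genistein arrays all read above the control arrays, at 0.31 (SE 0.14, 95% interval 0.0009 to 0.61, adjusted p = 0.129). With array weights Myd88 was called there (0.31, adjusted p = 0.0298) and for dexamethasone after genistein (0.30, adjusted p = 0.0336).

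In the order of group means, Tlr1 and Tlr2 ran from genistein vehicle through control vehicle and genistein dexamethasone to control dexamethasone. For both, the step between control vehicle and genistein dexamethasone was the only neighbouring pair without overlap. Tlr7 had the dexamethasone groups above the vehicle groups, with control dexamethasone highest and control vehicle lowest. Only its step from genistein dexamethasone to genistein vehicle was free of overlap. Tlr6 was free of overlap only in its last step, down to genistein dexamethasone, and Tlr3, Tlr4, Tlr8, Cd14 and Myd88 overlapped at every step.

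The genes whose signals followed each receptor most closely over the 16 arrays were found by Pearson correlation, a description in which arrays share group differences and scaling. For Tlr7 they were Errfi1 (r = 0.956), an inhibitor of the EGF receptor, the kinase gene Sgk1 (r = 0.956) and Fyb2 (r = 0.948). For Tlr1 they were the myeloid kinase gene Fgr (r = 0.958), Gpr84 (r = 0.951) and the phosphatase gene Ptpn6 (r = 0.929). For Tlr2 they were Ccdc88b (r = 0.948), H2-DMa (r = 0.948), which loads peptides on class II molecules, and Ptpn7 (r = 0.944). Tlr4 followed Spg20 (r = 0.972), Pou2f1 (r = 0.968) and Zfp935 (r = 0.957).

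The mean level of pan-leukocyte markers was lower on the dexamethasone arrays, as were the signals of Tlr1 and Tlr2. The mean log2 level of 7 pan-leukocyte markers was 0.14 to 0.33 on control vehicle and 0.20 to 0.85 on genistein vehicle arrays, but -0.58 to -0.17 on control dexamethasone and -0.28 to -0.09 on genistein dexamethasone arrays. Their summed signal, on the log2 scale, was 3.76 to 3.99 and 3.91 to 4.35 on the vehicle arrays and 2.74 to 3.06 and 3.01 to 3.34 on the dexamethasone arrays, in the same order. With dexamethasone 4 of 7 fell in controls and 4 of 7 after genistein, led in both by Cd52 at -1.26 and -1.15. Of all targets 14.6% fell and 8.45% rose in controls, and 2.79% fell and 2.49% rose after genistein. Of 8 neutrophil markers 6 fell in each comparison, and of 14 macrophage and monocyte markers 3 fell in each, among them the Fc receptor gene Fcgr1 (-1.80 and -1.61). In the macrophage list 2 rose in controls and 1 after genistein. The scavenger receptor gene Cd163 rose by 3.19 and 2.12, and Mrc1 by 0.84 in controls. The mean log2 level of these 14 was 0.12 to 0.23 on control vehicle and -0.19 to 0.42 on control dexamethasone arrays. After genistein it was -0.05 to 0.62 under vehicle and -0.31 to 0.09 under dexamethasone. In bulk tissue fewer cells of a type and less RNA per cell cannot be told apart, and the part of leukocyte content in the falls of Tlr1 and Tlr2 was not tested. Tlr7 was higher on the dexamethasone arrays. Over the arrays' deviations from their group means, the Pearson correlation with the mean pan-leukocyte level was 0.86 for Tlr1, 0.12 for Tlr2 and 0.36 for Tlr7. For Tlr1 the link was not particular to that list. Its correlation was 0.67 with the mean level of B cell markers, 0.65 with epithelial and -0.63 with endothelial markers. Fat and muscle markers also differed with dexamethasone in controls: 5 of 8 adipocyte markers rose, led by Lep at 4.63 and Cidec at 4.33, and 2 of 5 smooth muscle markers fell, Actg2 at -1.07 and Acta2 at -0.94. After genistein 0 of 8 and 0 of 5 were called by limma, and 0 had an unadjusted p below 0.05. Over deviations from group means, the correlation with the mean adipocyte level was 0.39 for Tlr7, 0.006 for Tlr2 and 0.25 for Tlr1. With the mean smooth muscle level it was -0.56 for Tlr7, 0.57 for Tlr2 and -0.43 for Tlr1. The summed adipocyte signal, on the log2 scale, was 1.75 to 3.96 on control vehicle, 3.47 to 7.11 on control dexamethasone, 3.70 to 5.42 on genistein vehicle and 2.94 to 5.49 on genistein dexamethasone arrays. The part of fat and muscle content in the Tlr7, Tlr2 and Tlr1 changes, in controls or after genistein, was not tested.

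**Figure D3:**
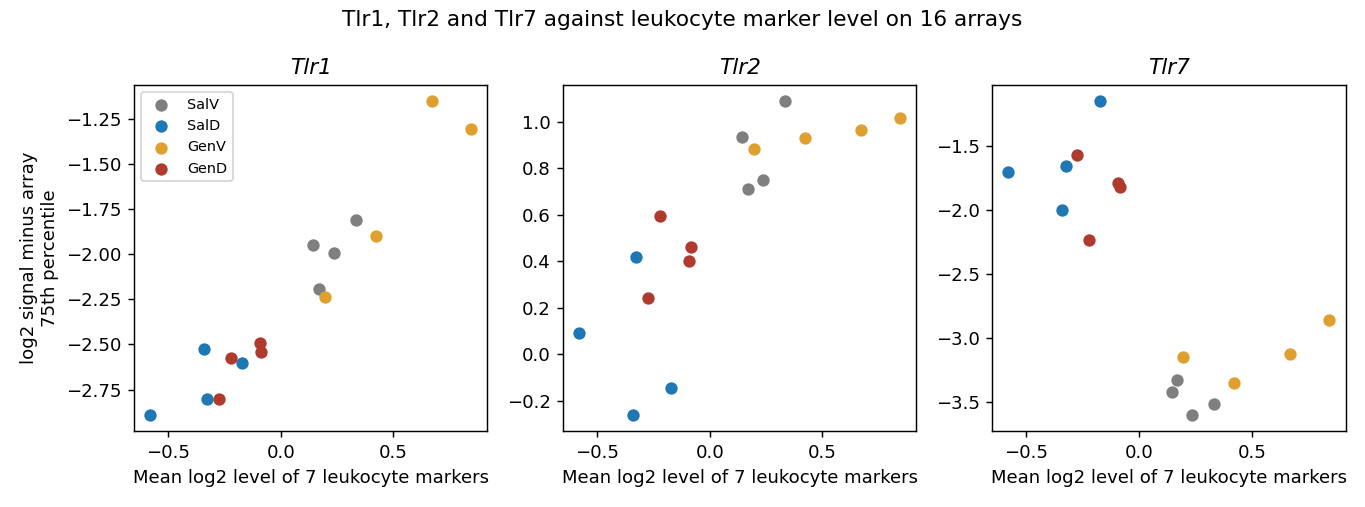
Scaled log2 signal of Tlr1, Tlr2 and Tlr7 (vertical) against the mean scaled log2 level of 7 pan-leukocyte markers (horizontal) on the 16 arrays, coloured by group. Dexamethasone arrays lie at marker levels of -0.58 to -0.09 and vehicle arrays at 0.14 to 0.85; Tlr1 and Tlr2 are lower and Tlr7 higher on the former.

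Of 77 other genes of the pathway, listed by role, 67 were measured. Dexamethasone in controls raised 3 and lowered 17 of them, against the 23.0% of all targets called, and after genistein it raised 2 and lowered 7, against 5.29%. Their median change was -0.18 and -0.20. Genistein under dexamethasone raised 14 and lowered 5, against 22.9% of targets, with a median of 0.016, and genistein under vehicle and the interaction had 0 calls by limma. Dexamethasone in controls, genistein under dexamethasone and the interaction all use the control dexamethasone arrays. The counts by role that follow stand beside these shares of all targets. With dexamethasone 14.6% fell and 8.45% rose in controls, and 2.79% fell and 2.49% rose after genistein. For genistein under dexamethasone 6.39% were lower and 16.5% higher.

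**Figure D4:**
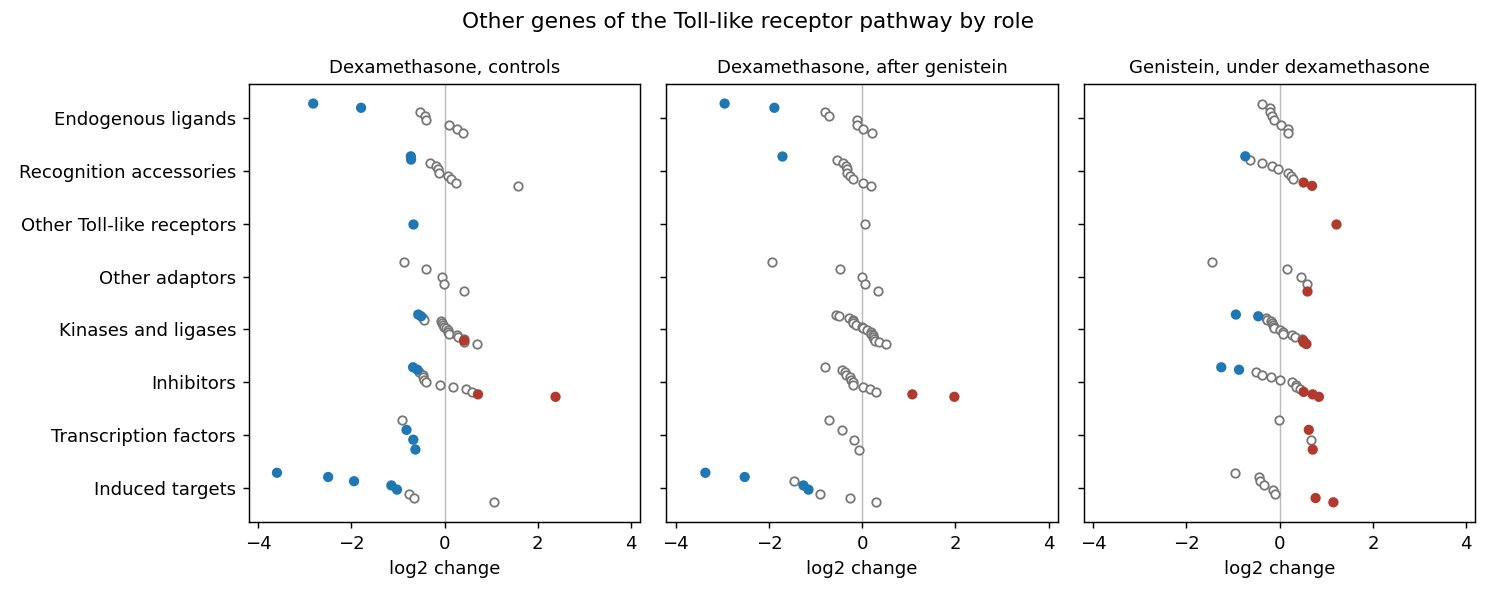
Log2 change of the 67 measured pathway genes, grouped by role (rows), in 3 comparisons; each point is a gene, filled where it passed the adjusted threshold (red higher, blue lower). The induced targets reach furthest to the left with dexamethasone (-3.59 for Il1b in controls), 2 inhibitors lie to the right in both dexamethasone panels, and more filled points lie to the right for genistein under dexamethasone.

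Upstream of the receptors, 2 of 8 endogenous ligands fell with dexamethasone in each setting. S100a9 changed by -2.82 and -2.95 and S100a8 by -1.79 and -1.88, in controls and after genistein; both encode the neutrophil protein calprotectin and also stand in the neutrophil list. Among 10 genes that help receptors to recognise ligands or to leave the endoplasmic reticulum, the Tlr4 relative Cd180, of B cells and dendritic cells, fell by 0.72 and 1.72 with dexamethasone (adjusted p = 0.0420 and 0.000709). Unc93b1, the chaperone that carries the endosomal receptors, fell by 0.72 in controls (SE 0.18, adjusted p = 0.0139). Unc93b1 was 0.70 higher for genistein under dexamethasone. Ly96, the MD-2 partner of Tlr4, was added after its values were seen and gave 0.15 and -0.33 with dexamethasone, with no call.

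Tlr9, the endosomal receptor for DNA, was the measured one of the 4 further Toll-like receptors. It ran from -0.88 to 0.17 on control vehicle arrays, -1.19 to -0.91 on control dexamethasone arrays, 0.03 to 0.23 on genistein vehicle arrays and 0.05 to 0.33 on genistein dexamethasone arrays. With dexamethasone Tlr9 fell by 0.67 in controls (SE 0.20, adjusted p = 0.0308) and gave 0.06 after genistein (adjusted p = 0.935). Under dexamethasone it was 1.21 higher in genistein than in control mice (SE 0.20, 2.31-fold, adjusted p = 0.00369), while the interaction was not called (0.73, adjusted p = 0.261).

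Of the 5 other adaptors none was called with dexamethasone by limma, and Ticam1, the adaptor of Tlr3, was 0.60 higher for genistein under dexamethasone (adjusted p = 0.0159). Among 18 kinases and ubiquitin ligases, dexamethasone in controls lowered Tab1 (-0.57) and Traf3 (-0.50) and raised Traf6 (0.42), and after genistein it called none. Genistein under dexamethasone raised 3 and lowered 2 of the 18, with Ikbkg, the regulatory subunit of the IκB kinase, at -0.94.

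Among the inhibitors, Dusp1, a phosphatase that switches off MAP kinases, rose by 2.38 in controls and 1.98 after genistein, and Nfkbia, which holds NF-κB in the cytoplasm, by 0.72 (adjusted p = 0.0477) and 1.08 (adjusted p = 0.0194). Of 13 inhibitors 2 rose and 2 fell in controls, Sigirr at -0.68 among them, and 2 rose after genistein. Genistein under dexamethasone raised 3 of the 13 and lowered 2. Tollip was 0.84 higher, and the RNase gene Zc3h12a and the ligase gene Rnf216 changed by -1.25 and -0.87.

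Among 4 measured transcription factors 3 fell with dexamethasone in controls, Rela at -0.82, Irf3 at -0.67 and Irf5 at -0.63, and none was called after genistein. For genistein under dexamethasone Rela (0.71) and Irf3 (0.62) were higher. At the output, 5 of 8 induced targets fell in controls and 4 of 8 after genistein. The cytokine gene Il1b changed by -3.59 and -3.36, the interferon-induced chemokine gene Cxcl10 by -2.50 and -2.52 and Tnf by -1.94 and -1.15. Genistein under dexamethasone raised Tnf by 1.15 (adjusted p = 0.0146), with overlapping groups, and the chemokine gene Ccl5 by 0.77 (adjusted p = 0.0279).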

How the data were processed

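Total RNA of whole uterus, purified on columns with DNase digestion and labelled with Cy3, was hybridised to Agilent mouse arrays, per the labels' protocols. The deposited values are spot intensity, linear, with the background removed within each array and no scaling across arrays, per the file headers. The headers name Agilent Feature Extraction 12.0.0.7, and the submitters' processing notes name version 9.5. The deposited series matrix holds the same intensity (largest difference 0). Spot flags, other values of 0 or 1 per the file headers, were used for filtering, and 0 columns of sample values were left unused.

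The log2 of each signal minus its array's 75th percentile was analysed. Control spots (1639 of 45018) and outlier spots were left out, repeat spots were averaged, and 807 probes lacking a value on some array were dropped, among them the brighter Tlr3 probe. Probes detected well above background on 4 or more of the 16 arrays were kept (32598 probes), and the brightest kept probe stood for a gene. RefSeq accessions without versions matched symbols for 28223 of 29245 probes.

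The 4 group means were modelled over all 16 arrays in limma 3.58.1 (R 4.3.3, data.table at 1.17.8, jsonlite 2.0.0) and tested on simulated data. Two-sided p-values were adjusted by Benjamini-Hochberg within each of 5 comparisons, and calls are below 0.05. The number of arrays limits the precision. Figures and motif searches used Python 3.11.15 with matplotlib 3.10.9, numpy 2.4.6 and pandas 2.3.3. Probe positions are not given, since the arrays and the annotation use different genome builds.

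The genes, lists and settings were chosen with earlier results of these data known. The text names the 10 genes, a check of the treatment, up to 3 called genes of each pathway list (or the 1 with the smallest p), up to 2 called markers of each cell type list, and the 3 genes most like a receptor. Alternatives were quantile normalization, median scaling, normexp correction (offset 50, on median spot signals because the planned mean signals were not in the files), other filters, slide or replicate number as a block, a fit of the compared arrays alone, array weights, a variance trend, other thresholds, and leaving out arrays. The brighter Tlr3 probe on 15 arrays was added after seeing the data.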

Additional observations from a re-analysis of the deposited data

Results flagged for a closer look

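Tlr8 on genistein vehicle array 3 stood far from the rest of its group. It read -5.96 there and -9.34, -8.85 and -8.86 on the other arrays of the group, a gap of 0.854 of the group's range. That array was the only genistein vehicle array on which the Tlr8 probe was well above background. Of 36 groups of 4 arrays checked for the 9 genes this was 1, and chance alone gives about 1 in 20.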

How the results depend on the processing

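Alternatives were read as calls of the 9 genes, and a sign that turned where no direction was called was not counted as a reversal; no called direction reversed. For dexamethasone in controls 3 genes were called, and 2 to 4 under the 33 alternatives. For dexamethasone after genistein 2 were called, against 1 under median scaling, with only the arrays compared or without GenV arrays 3 and 4, 0 under normexp, 4 with probes above background on all 16 arrays or at an adjusted p below 0.1, and 5 with array weights (2 to 3 leaving out each array). For genistein under dexamethasone 1 was called, against 2 under quantile normalization, median scaling or slide as a fixed block, 6 with array weights, 4 at an adjusted p below 0.1 and 0 without SalD arrays 2 and 3 (1 to 2 leaving out each array). For genistein under vehicle and the interaction 0 were called throughout. Leaving out each array gave 2 to 4 calls for dexamethasone in controls. Apart from fewer arrays or targets, the cause was not tested.

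Calls over all targets ran from 3107 to 8007 (5669 in the fit used) for dexamethasone in controls, 370 to 6065 (1303) after genistein, 0 to 2 (1) for genistein under vehicle, 2394 to 11036 (5654) for genistein under dexamethasone and 0 to 96 (0) for the interaction. Without SalV array 1 the first was 3107 and without SalD array 4 it was 3565; without GenD array 3 the second was 719 and the fourth 3293. The share of calls that were rises in controls was 36.7%, 47.3% with quantile normalization and 64.8% with median scaling; for genistein under dexamethasone it was 72.1%, 56.2% and 56.3%. The median change of all targets in controls was -0.16, against 0.068 with median scaling and -0.49 with normexp, and for genistein under dexamethasone 0.12, against 0.46 with normexp; Tlr7, Tlr2 and Tlr1 kept their directions with dexamethasone in controls. Pathway calls ran from 14 to 29 (20), 2 to 27 (9) and 6 to 31 (19) in the dexamethasone comparisons and genistein under dexamethasone.

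Same-numbered arrays did not deviate together throughout (correlations of deviations from -0.129 to 0.357), so the numbers are not taken as pairs. With the replicate block 3, 2, 0, 1 and 0 genes were called, as without it, and 6080, 1356, 0, 5799 and 0 targets. Slide as a random block had a correlation of 0.0313. Tlr8, dim on 12 arrays, is the gene whose signal over background limits it most.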

Other observations

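Markers of further immune cells moved in these comparisons. Of all targets 14.6% fell with dexamethasone in controls, and after genistein 2.79% fell and 2.49% rose. For genistein under dexamethasone 16.5% of targets were higher and 6.39% lower. Of 8 T and NK cell markers 5 fell with dexamethasone in controls, led by Cd3d at -1.45 and Cd3g at -1.37, and 1 rose after genistein (Klrb1c, 0.84). For genistein under dexamethasone 4 of the 8 were higher, with Cd8a at 1.45 and Cd4 at 1.18. Of 8 dendritic cell markers Batf3, a transcription factor of cross-presenting cells, changed by -2.13 in controls and -1.22 after genistein, with 3 and 2 markers lower. Under dexamethasone, 4 dendritic markers were higher and 1 was lower in genistein against control mice, with the chemokine receptor gene Xcr1 at 1.89 and Flt3 at 1.60. The limma fits, thresholds and adjustment are those of the report.

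Genes that followed the arrays' deviations from their own group means were other than those that followed the values for most receptors. For Tlr7 they were 4930577N17Rik (r = 0.884), Atp6v0d2 (r = 0.856) and Gpnmb (r = 0.841), and for Cd14 Tbc1d10a (r = 0.967), Hspb1 (r = 0.962) and Kcnq1 (r = 0.941), over 16 arrays.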
